A study of Mus musculus with 18 samples.

Results

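The genes described here are 10 mouse genes that mark pericytes, pancreatic stellate cells and fibroblasts, the supporting cells around the vessels and edges of the pancreatic islet. They are Pdgfra, Pdgfrb, Rgs5, Cspg4, Acta2, Des, Dcn, Lum, Sparc and Fn1. The members were taken by symbol, and each matched 1 of the 54186 rows of the deposited table. All 10 passed the filter on low counts, which kept 20244 genes. The RNA came from whole islets of 18 FVB mice aged 6 weeks, with 1 library per mouse and 6 mice per genotype. The hIAPP mice carried a transgene for human islet amyloid polypeptide (IAPP, a hormone that beta cells secrete with insulin), and the rIAPP mice one for the rodent form. In both, the insulin II promoter drove the transgene in beta cells, not in the supporting cells. WT mice carried neither transgene, and no other treatment was named for any group.

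Pericytes wrap the capillaries of the islet, share a basement membrane with the endothelium and can contract to change its blood flow. They depend on PDGF-B, which endothelial cells secrete, and on its receptor PDGFR-beta. Pancreatic stellate cells lie beside acini and islets and store vitamin A when quiescent. When activated they take up smooth muscle actin and deposit matrix, as fibroblasts do. The members fall by role into growth factor receptors (Pdgfra, Pdgfrb), pericyte surface and signalling genes (Rgs5, Cspg4), contractile and cytoskeletal genes (Acta2, Des), collagen-binding proteoglycans (Dcn, Lum), and glycoproteins of the matrix (Sparc, Fn1). None of them marks only 1 of these cell types. Sparc is also made by endothelial cells and Fn1 by macrophages and endothelial cells.

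Library totals ranged from 144 to 166.2 M counts in WT, 110 to 142 in hIAPP and 128 to 158 in rIAPP. Endocrine markers, the hormone and beta cell genes, summed to 144504 to 186459 CPM (counts scaled to a common library total) in WT, 88244 to 149754 in hIAPP and 94336 to 130943 in rIAPP, far above every other marker list in each library, as the label islet names. Marker lists of other cells moved with genotype. Acinar markers (14 genes) summed to 782 to 3245 CPM in WT, 2099 to 13953 in hIAPP and 3561 to 15459 in rIAPP. Macrophage markers (12 genes) summed to 141 to 165 CPM in WT, 381 to 767 in hIAPP and 95.3 to 111 in rIAPP. Endothelial markers (12 genes) summed to 690 to 790 CPM in WT, 620 to 717 in hIAPP and 873 to 975 in rIAPP. No marker of these lists was at 0 in any library.

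Set per kb of exon, the members spanned a wide range of levels. In WT islets the order was Rgs5 (mean 88.1 CPM per kb), Sparc (75.1), Dcn (13.3), Pdgfrb (8.32), Acta2 (3.29), Lum (2.96), Des (2.47), Pdgfra (0.756), Cspg4 (0.679) and Fn1 (0.427). The ranges over the 6 WT libraries overlapped between Rgs5 and Sparc, Acta2 and Lum, Lum and Des, Pdgfra and Cspg4, and Cspg4 and Fn1. Those neighbours were therefore not set apart by their spread. Rgs5 and Sparc, a pericyte gene and a secreted matrix protein of many vessel-associated cells, were the most abundant members in all 3 genotypes. In hIAPP they averaged 134 and 89.6 CPM per kb, whereas in rIAPP they averaged 88.9 and 110. Fn1 was last in WT at 0.427 CPM per kb but averaged 1.89 in hIAPP, above Pdgfra (0.661) and Cspg4 (0.702). Pdgfra averaged 2.09 CPM per kb in rIAPP. With the longest transcript as the length, Rgs5 and Sparc, and Lum and Des, changed places in WT, as did Fn1 and Cspg4 in rIAPP.

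**Figure D1:**
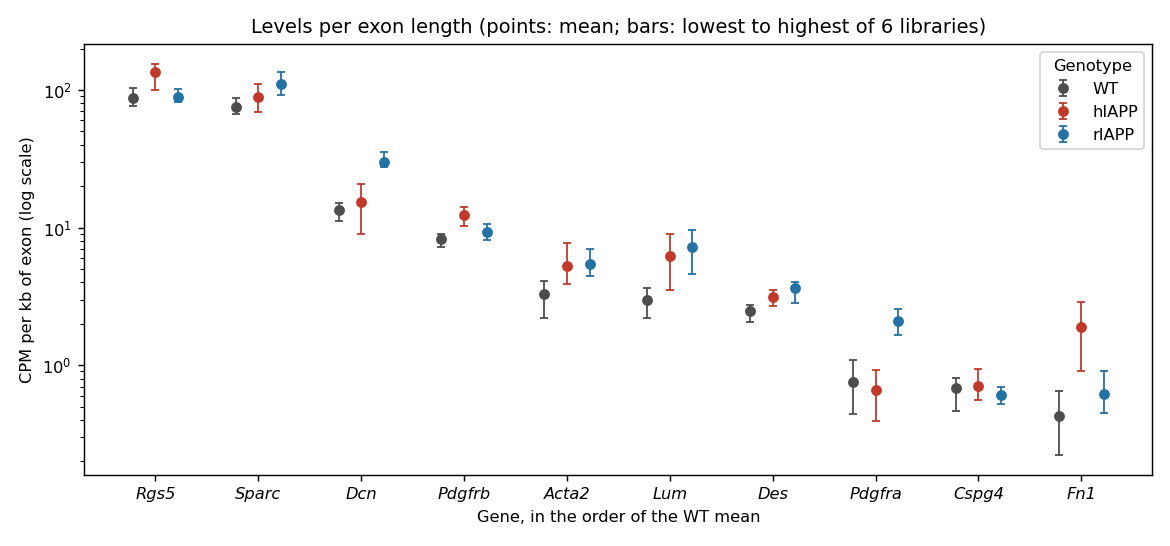
Level of each member per kb of exon (CPM per kb, log axis) in WT, hIAPP and rIAPP islets, with a point at the mean and a line from the lowest to the highest of 6 libraries. Rgs5 and Sparc lie highest in every genotype, Fn1 is lowest in WT (0.427) and Pdgfra stands apart in rIAPP (2.09).

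The first question was how these genes differed between islets with the human transgene and WT islets. In hIAPP, 6 of the 10 members rose and none fell (edgeR adjusted p under 0.05). The risers were Fn1, Lum, Acta2, Rgs5, Pdgfrb and Des, and Pdgfra, Cspg4, Dcn and Sparc did not pass the test. Over all genes tested, 8.31% rose, 7.53% fell and 15.8% passed in either direction. The hIAPP and WT libraries did not overlap for Pdgfrb and Fn1, both higher in hIAPP, against 6.63% of all genes, 3.74% higher and 2.89% lower. The median log2 fold change of the members was 0.45 beside -0.01 over all genes. Because these are bulk samples, fewer cells of a type and less RNA per cell cannot be told apart here or below. Acinar and macrophage markers were also higher in hIAPP. With the acinar score as a covariate, the calls on Fn1, Pdgfrb and Rgs5 remained (edgeR adjusted p = 0.0154, 0.0353 and 0.0326) and 3 members in all were called. Calls over all genes fell from 3208 to 746 in that fit. Of the hIAPP acinar scores (5.84 to 8.56), only that of hIAPP 1 lay inside the WT range (4.65 to 6.51). The acinar fit of hIAPP against WT, here and below, therefore extrapolates for the other hIAPP libraries. The part of the macrophage markers in the result was not tested.

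The rodent transgene was compared with WT in the same way. In rIAPP, 6 of 10 rose and none fell, against 14.1% of all genes that rose, 12.6% that fell and 26.8% that passed in either direction. These were Pdgfra, Lum, Dcn, Acta2, Des and Sparc. All 6 had rIAPP libraries that lay above every WT library, a separation seen upward in 8.13%, downward in 6.75% and either way in 14.9% of all genes. Pdgfrb, Rgs5, Cspg4 and Fn1 did not pass. The median log2 fold change was 0.56 beside -0.01 over all genes. Acinar and endothelial markers were higher in rIAPP, and all 12 endothelial markers passed the test. With the acinar score as a covariate 2 members were called, Pdgfra and Dcn (edgeR adjusted p = 0.0453 and 0.0385). Calls over all genes fell from 5417 to 1979 in that fit. Sparc kept a log2 fold change of 0.52 with a wider SE of 0.18 and did not pass (edgeR adjusted p = 0.0786). The acinar scores of rIAPP (6.79 to 8.82) and WT (4.65 to 6.51) did not overlap, so this fit extrapolates. With the endothelial score as a covariate, whose rIAPP values did not overlap those of the other genotypes, 1 member was called, Cspg4, which was lower (log2 fold change -0.82, edgeR adjusted p = 0.00980). Calls over all genes fell to 1051 there.

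The direct test of hIAPP against rIAPP split the members both ways. Fn1, Rgs5 and Pdgfrb were higher in hIAPP, Pdgfra, Dcn and Sparc were lower, and 4 members did not pass. Of all genes, 27.6% passed, 13.5% higher and 14.1% lower. Libraries did not overlap for Pdgfra, Dcn and Fn1, against 13.4% of all genes, 6.52% higher and 6.85% lower. The median of the members was -0.14, with 3 up and 3 down. With the endothelial score as a covariate 5 members were higher and 0 lower. Of all genes, 460 were called there against 5586 without the covariate. The 3 comparisons share libraries pairwise, so their counts are not independent of each other.

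**Figure D2:**
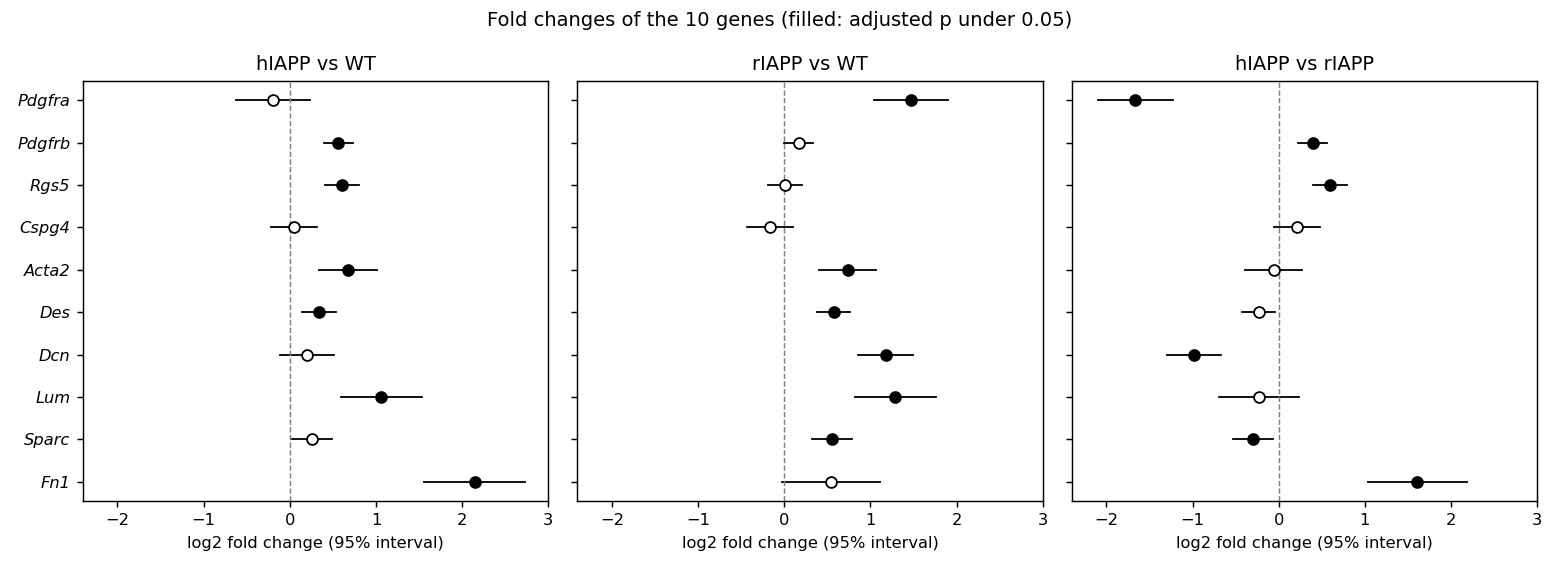
Log2 fold change of each member with its 95% interval from the edgeR fit in the 3 comparisons, with filled points for an adjusted p under 0.05 and a line at 0. Fn1 (2.15) and Pdgfra (1.47) lie farthest from 0 for hIAPP and rIAPP against WT.

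Pdgfra and Pdgfrb encode the receptor tyrosine kinases for platelet-derived growth factors. PDGFR-beta marks pericytes and PDGFR-alpha marks fibroblasts and other mesenchyme. Pdgfra lies at chr5:75152292-75198215 on the plus strand and Pdgfrb at chr18:61045150-61085061 on the plus strand (GRCm38). Pdgfra libraries ranged from 4.47 to 10.9 CPM in WT (median 7.49), from 3.93 to 9.27 in hIAPP (median 6.91) and from 16.5 to 25.8 in rIAPP (median 20.2). Every rIAPP library thus lay above all libraries of the other genotypes, while WT and hIAPP overlapped. Against WT, Pdgfra rose by a log2 fold change of 1.47 ± 0.21 (SE) in rIAPP (95% interval 1.04 to 1.90, edgeR adjusted p = 1.53e-05), which is 2.77-fold. This rise was 0.96 with the acinar score as a covariate (edgeR adjusted p = 0.0453) and 0.28 with the endothelial score (edgeR adjusted p = 0.689). Both fits extrapolate for rIAPP against WT. Pdgfra did not pass in hIAPP (log2 fold change -0.19 ± 0.20, 95% interval -0.62 to 0.23, edgeR adjusted p = 0.599). The difference of hIAPP from rIAPP was -1.66 ± 0.21 on the log2 scale (edgeR adjusted p = 3.79e-06). Pdgfra shares 456 exon bases with the antisense model Gm42802.

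Pdgfrb was highest in hIAPP instead. Its libraries ranged from 39.5 to 49.2 CPM in WT (median 47.6), from 56.2 to 77.8 in hIAPP (median 66.5) and from 44.8 to 57.7 in rIAPP (median 50.6). All hIAPP libraries lay above all WT libraries, and the rIAPP range overlapped both. Against WT, Pdgfrb rose 1.47-fold in hIAPP, a log2 fold change of 0.56 ± 0.08 (edgeR adjusted p = 8.30e-05). In rIAPP the log2 fold change was 0.17 ± 0.08 (edgeR adjusted p = 0.142), which passed only when library totals alone set the scale (adjusted p = 0.0290). The hIAPP value was 0.40 ± 0.08 above rIAPP on the log2 scale (edgeR adjusted p = 8.29e-04). The ratio of Pdgfra to Pdgfrb CPM, a description only, ranged from 0.113 to 0.221 in WT, 0.0614 to 0.119 in hIAPP and 0.343 to 0.471 in rIAPP. The rIAPP ratios lay above every other library.

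**Figure D3:**
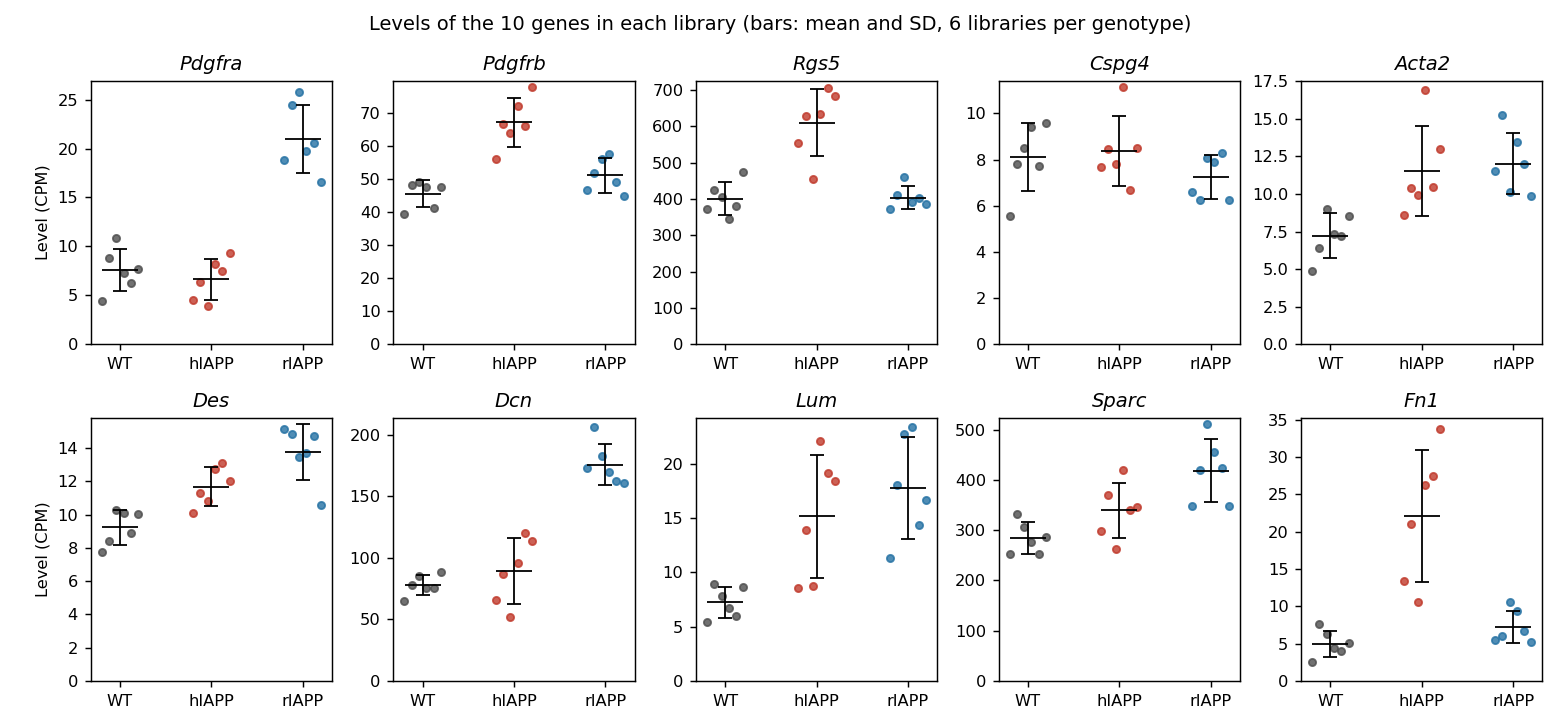
CPM of each member in every library (1 point each), grouped by genotype on axes that start at 0, with bars for the mean and SD. Pdgfra libraries of rIAPP mice (16.5 to 25.8) and Fn1 libraries of hIAPP mice (10.6 to 33.7) lie above those of the other genotypes.

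Rgs5 encodes a regulator of G protein signalling that damps receptor signals in pericytes and is among the most specific pericyte transcripts. Cspg4 encodes the NG2 proteoglycan on the pericyte surface. Rgs5 lies at chr1:169655501-169695813 on the plus strand and Cspg4 at chr9:56865033-56899870 on the plus strand. Rgs5 libraries ranged from 345 to 473 CPM in WT (median 393), from 456 to 707 in hIAPP (median 632) and from 371 to 461 in rIAPP (median 398). Most hIAPP libraries lay above the rest, with the lowest inside the WT range, and WT and rIAPP overlapped. Rgs5 rose in hIAPP against WT by a log2 fold change of 0.61 ± 0.10 (edgeR adjusted p = 2.16e-04) and was higher than in rIAPP by 0.60 ± 0.10 (edgeR adjusted p = 7.35e-05). Against WT, the rIAPP difference was 0.01 ± 0.09 (95% interval -0.19 to 0.21, edgeR adjusted p = 0.949).

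Cspg4 ranged from 5.57 to 9.61 CPM in WT (median 8.16), 6.68 to 11.1 in hIAPP (median 8.14) and 6.26 to 8.29 in rIAPP (median 7.25). The 3 ranges overlapped, and no comparison passed. The 95% intervals of the log2 fold change were -0.22 to 0.32 for hIAPP against WT, -0.43 to 0.11 for rIAPP against WT and -0.06 to 0.48 for hIAPP against rIAPP. Pdgfrb and Rgs5, the other members known for pericytes, were called in hIAPP and Cspg4 was not, and the difference between genes was not tested.

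Acta2 encodes the smooth muscle actin that stellate cells and pericytes gain when activated. Des encodes desmin, an intermediate filament of muscle and mural cells. Acta2 lies at chr19:34241090-34255590 on the minus strand and Des at chr1:75360329-75368579 on the plus strand. Reads of Acta2 may be shared with other actin genes, since the counts are fractional. The 4 promoters below are shown because the contractile genes are a known class controlled through serum response factor, which binds the CArG box, and because Rgs5 was called in hIAPP and Pdgfra in rIAPP against WT. They are RefSeq sequences of build GRCm38.p6, from 250 bases before to 50 bases after the annotated start, read 5′ to 3′ on the gene's strand. Capitals mark the matches of the motifs searched on both strands.
Acta2: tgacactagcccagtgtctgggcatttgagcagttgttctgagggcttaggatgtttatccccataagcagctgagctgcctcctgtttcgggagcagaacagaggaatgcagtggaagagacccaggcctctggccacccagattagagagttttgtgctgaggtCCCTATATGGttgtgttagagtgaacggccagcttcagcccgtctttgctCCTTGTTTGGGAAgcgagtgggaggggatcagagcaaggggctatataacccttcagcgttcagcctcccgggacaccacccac
Des: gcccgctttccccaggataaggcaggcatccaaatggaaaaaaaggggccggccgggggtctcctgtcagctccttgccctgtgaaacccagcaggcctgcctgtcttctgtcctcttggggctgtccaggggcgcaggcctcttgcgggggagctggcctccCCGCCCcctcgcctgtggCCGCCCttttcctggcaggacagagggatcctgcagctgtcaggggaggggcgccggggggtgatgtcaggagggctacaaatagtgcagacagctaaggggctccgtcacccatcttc
Rgs5: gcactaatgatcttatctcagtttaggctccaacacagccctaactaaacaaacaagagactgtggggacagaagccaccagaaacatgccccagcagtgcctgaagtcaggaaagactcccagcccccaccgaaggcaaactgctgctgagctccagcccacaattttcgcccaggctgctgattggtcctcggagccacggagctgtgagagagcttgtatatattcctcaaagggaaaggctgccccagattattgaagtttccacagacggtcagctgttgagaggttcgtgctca
Pdgfra: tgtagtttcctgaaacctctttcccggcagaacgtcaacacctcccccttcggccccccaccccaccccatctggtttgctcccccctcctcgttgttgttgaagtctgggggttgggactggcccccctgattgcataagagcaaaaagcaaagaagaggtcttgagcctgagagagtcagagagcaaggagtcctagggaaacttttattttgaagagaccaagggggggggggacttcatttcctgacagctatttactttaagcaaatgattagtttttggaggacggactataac
The 4 windows are chr19:34255324-34255623 (minus), chr1:75360042-75360341 (plus), chr1:169655251-169655550 (plus) and chr5:75152001-75152300 (plus). The table held promoters of 6 of the 10 members.

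Motifs were searched as the CArG box by name (also with 1 inner G or C, a form added after the sequences were seen), AP-1 as TGANTCA, the GC box as GGGCGG and the RBPJ core as TGGGAA. The Acta2 window held CArG boxes with 1 inner G or C at -84 and -34, the second overlapping an RBPJ core at -27. The Des window held GC boxes at -87 and -69, and the Rgs5 and Pdgfra windows held none of the motifs. Among 32544 promoters of the same length, 1.64% held a strict CArG box, 8.46% the form with 1 inner G or C, 7.79% an AP-1 site, 35.9% a GC box and 25.4% an RBPJ core. A match is a description of the letters, not a measured binding site.

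Acta2 ranged from 4.85 to 8.99 CPM in WT (median 7.27), from 8.58 to 16.9 in hIAPP (median 10.4) and from 9.83 to 15.2 in rIAPP (median 11.8). The rIAPP libraries all lay above WT, and the lowest hIAPP library lay inside the WT range. Acta2 rose in both transgenic lines, by a log2 fold change of 0.68 ± 0.16 in hIAPP (edgeR adjusted p = 0.00688) and 0.74 ± 0.16 in rIAPP (edgeR adjusted p = 0.00155). Their difference was -0.06 ± 0.16 (95% interval -0.39 to 0.27, edgeR adjusted p = 0.829). With the acinar score as a covariate, the log2 fold changes were 0.31 and 0.26, and neither passed (edgeR adjusted p = 0.461 and 0.577).

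Des ranged from 7.73 to 10.3 CPM in WT (median 9.48), 10.1 to 13.1 in hIAPP (median 11.7) and 10.6 to 15.2 in rIAPP (median 14.2). The rIAPP libraries all lay above WT, and the hIAPP libraries nearly did so. Des rose by a log2 fold change of 0.34 ± 0.09 in hIAPP (edgeR adjusted p = 0.0168) and by 0.57 ± 0.09 in rIAPP (edgeR adjusted p = 8.07e-05). The difference of hIAPP from rIAPP was -0.23 ± 0.09 (edgeR adjusted p = 0.0650) and passed without rIAPP 6 (-0.30, edgeR adjusted p = 0.0114) or without hIAPP 5 (-0.27, edgeR adjusted p = 0.0473). With all libraries kept, it passed in limma-voom with sample quality weights (-0.29, limma-voom adjusted p = 0.0122). The hIAPP rise was not called without hIAPP 5 and hIAPP 6 (0.29, edgeR adjusted p = 0.101), 2 libraries with high acinar scores (7.71 and 8.56). Those 2 also had the highest macrophage sums of hIAPP (767 and 660 CPM) and its lowest endocrine sums (88244 and 104865 CPM). Which of these went with the call lost on leaving them out was not tested. Calls over all genes fell from 3208 to 1675 without the 2 libraries. As a covariate in all 18 libraries, the acinar score left Des at 0.15 in hIAPP and 0.33 in rIAPP against WT. Neither passed (edgeR adjusted p = 0.566 and 0.148). With the endothelial score the rIAPP rise of Des was 0.19 (edgeR adjusted p = 0.635). Both fits extrapolate for rIAPP against WT. Des shares 220 exon bases with the antisense model Gm15179, and the strand setting of the counting is not given in the sources used here.

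Dcn and Lum encode decorin and lumican, small leucine-rich proteoglycans that bind collagen fibrils and set their spacing. They are neighbours on chromosome 10, at chr10:97479609-97518143 and chr10:97565128-97572703, both on the plus strand, with 46984 bases between them. Dcn ranged from 64.6 to 88.6 CPM in WT (median 76.7), from 52.2 to 120 in hIAPP (median 91.5) and from 161 to 206 in rIAPP (median 171). Every rIAPP library was above every other library, and the hIAPP libraries spread across and beyond the WT range. Dcn rose in rIAPP by a log2 fold change of 1.17 ± 0.15 (edgeR adjusted p = 5.36e-06) and was not called in hIAPP (0.20 ± 0.15, 95% interval -0.12 to 0.51, edgeR adjusted p = 0.434). The hIAPP value was below rIAPP by a log2 fold change of -0.98 ± 0.15 (edgeR adjusted p = 4.79e-05). The rIAPP rise of Dcn against WT was 0.68 with the acinar score as a covariate (edgeR adjusted p = 0.0385). With the endothelial score it was 0.57 and did not pass (edgeR adjusted p = 0.285). Both fits extrapolate there.

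Lum ranged from 5.40 to 8.91 CPM in WT (median 7.28), from 8.55 to 22.1 in hIAPP (median 16.2) and from 11.3 to 23.3 in rIAPP (median 17.3). All rIAPP libraries lay above WT, and 2 hIAPP libraries lay inside the WT range. Lum rose by 1.06 ± 0.22 on the log2 scale in hIAPP (edgeR adjusted p = 0.00315) and 1.29 ± 0.23 in rIAPP (edgeR adjusted p = 1.87e-04), with a difference of -0.23 ± 0.22 between them (edgeR adjusted p = 0.493). With the acinar score as a covariate the log2 fold changes were 0.64 ± 0.31 and 0.80 ± 0.34, and neither passed (edgeR adjusted p = 0.306 and 0.177). With the endothelial score the rIAPP rise of Lum was 0.08 and did not pass (edgeR adjusted p = 0.942). Both fits extrapolate for rIAPP against WT. The ratio of Dcn to Lum CPM ranged from 8.71 to 12.6 in WT, 4.35 to 7.64 in hIAPP and 7.28 to 15.3 in rIAPP. All hIAPP ratios were thus below all WT ratios, and the rIAPP ratios spanned the WT range.

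Sparc encodes osteonectin, a collagen-binding glycoprotein, and Fn1 encodes fibronectin, which cells assemble into fibrils through integrins. Sparc lies at chr11:55394500-55423183 and Fn1 at chr1:71585520-71653200, both on the minus strand. Sparc ranged from 252 to 332 CPM in WT (median 282), from 262 to 419 in hIAPP (median 343) and from 348 to 511 in rIAPP (median 422). All rIAPP libraries were above WT, and hIAPP overlapped both. Sparc rose in rIAPP against WT by a log2 fold change of 0.56 ± 0.11 (edgeR adjusted p = 6.55e-04), and in hIAPP the value was 0.25 ± 0.11 (edgeR adjusted p = 0.128). Against rIAPP, hIAPP was lower by a log2 fold change of -0.30 ± 0.11 (edgeR adjusted p = 0.0472), a call that was lost in 12 of 18 fits that left out 1 library (edgeR adjusted p from 0.0145 to 0.130 over the 18). The libraries whose removal lost it were WT 1, 3, 4 and 6, hIAPP 1, 3, 5 and 6, and rIAPP 2, 3, 4 and 5. Among the fits that left out 1 library, the hIAPP value against WT passed without hIAPP 3 (0.33, edgeR adjusted p = 0.0389). It also passed with library totals alone as the scale (0.38, edgeR adjusted p = 0.0348) and with the endothelial score as a covariate (0.56, edgeR adjusted p = 2.37e-04).

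Across all 3 comparisons, the largest log2 fold change of the 10 members was that of Fn1 in hIAPP against WT. In the other 2 comparisons Pdgfra was farther from 0 than Fn1. Fn1 ranged from 2.59 to 7.58 CPM in WT (median 4.75), from 10.6 to 33.7 in hIAPP (median 23.6) and from 5.22 to 10.6 in rIAPP (median 6.41). All hIAPP libraries lay above all WT libraries and above all rIAPP libraries, the nearest pair of the latter both rounding to 10.6. Fn1 rose 4.43-fold in hIAPP against WT, a log2 fold change of 2.15 ± 0.28 (95% interval 1.56 to 2.73, edgeR adjusted p = 3.30e-05). Against rIAPP it was 3.05-fold higher, 1.61 ± 0.27 on the log2 scale (edgeR adjusted p = 1.52e-04). For rIAPP against WT the value was 0.54 ± 0.27 (edgeR adjusted p = 0.163). Macrophage markers, which were also highest in hIAPP (381 to 767 CPM), can carry Fn1, and their part in the result was not tested. Fn1 shares 292 exon bases with the antisense model Apol7d.

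The balance of members to each other shifted with genotype. Fn1 over Dcn ranged from 0.0401 to 0.0976 in WT, 0.203 to 0.296 in hIAPP and 0.0295 to 0.0579 in rIAPP, so the hIAPP ratios lay apart from the rest. Acta2 over Rgs5 ranged from 0.0130 to 0.0221 in WT, 0.0148 to 0.0267 in hIAPP and 0.0220 to 0.0371 in rIAPP. The rIAPP ratios had the highest median but overlapped both other ranges. The ratios have no test of their own, since they were chosen among the members with their levels in view.

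**Figure D4:**
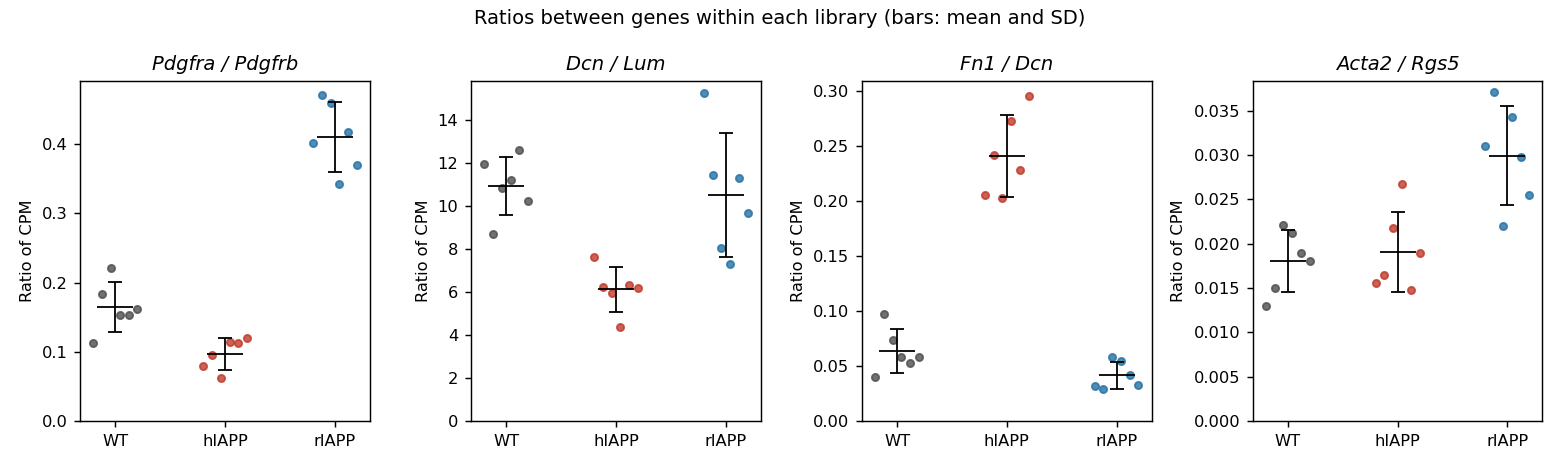
Ratios of CPM between pairs of members in each library (1 point each), by genotype on axes that start at 0, with bars for the mean and SD. The ratio of Pdgfra to Pdgfrb is highest in rIAPP (0.343 to 0.471) and that of Fn1 to Dcn highest in hIAPP (0.203 to 0.296).

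Outside the members, genes whose log2 CPM ran most like Pdgfrb over the 18 libraries included Aoc3 and Tnc (Pearson r = 0.93 each), Mgp (0.92) and Col18a1 (0.92). Those most like Dcn were Myof, Acvrl1 and Scn7a (r = 0.97 each), Ms4a4d (0.96) and Fbln1 (0.96). The libraries share genotype, so these values describe the pattern across the 3 groups and were not tested.

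Other genes of these cells, and gene families and pathways around the members, were examined through lists written from textbook knowledge. The lists were chosen with earlier results of these data known, and a listed gene need not come from these cells. Counts are over the genes tested, and each median is to be read beside -0.01 over all genes for either line against WT. Of all genes, 8.31% rose and 7.53% fell in hIAPP, and 14.1% rose and 12.6% fell in rIAPP. Between hIAPP and rIAPP, 13.5% were higher and 14.1% lower. These shares belong beside every list count here and below. Of 14 pericyte genes, 7 rose in hIAPP against WT and none fell, with a median log2 fold change of 0.36. Among them were Notch3, a receptor that maintains mural cells (0.68, edgeR adjusted p = 3.33e-04), Anpep (0.60, 0.00387) and the gap junction gene Gja4 (0.57, 6.08e-04). In the fit with the acinar score 0 pericyte genes were higher in hIAPP and 4 in rIAPP. With the endothelial score, a fit that extrapolates for rIAPP, 8 were higher in hIAPP and 2 in rIAPP. Calls over all genes also fell in the acinar fit, from 3208 to 746 for hIAPP against WT. For rIAPP against WT they fell from 5417 to 1979. In the endothelial fit they were 1735 and 1051, and 460 instead of 5586 for hIAPP against rIAPP. List counts from these fits, here and below, are to be read beside those. In rIAPP against WT, 5 rose and 1 fell (median 0.23), with Anpep at 1.04 (edgeR adjusted p = 4.24e-06), led by Kcnj8, a potassium channel subunit of pericytes (1.69, edgeR adjusted p = 1.49e-08), Vtn (1.02, 1.21e-06) and Steap4 (0.90, 2.64e-06). The gene that fell was Cox4i2 (-0.26, edgeR adjusted p = 0.0485, named after its value was seen), which was not called in 22 of 33 alternative fits. Between hIAPP and rIAPP, 4 were higher and 4 lower. Notch3 was higher in hIAPP (0.62) and Kcnj8 (-1.42) and Steap4 (-0.84) were lower.

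Of 13 smooth muscle contractile genes, 7 rose in hIAPP (median 0.42) and 10 in rIAPP (median 0.47) against WT, and none fell in either. Without hIAPP 5 and hIAPP 6, 2 of the 13 rose in hIAPP, and calls over all genes fell from 3208 to 1675. Myocd, the coactivator of serum response factor, rose by 1.40 in hIAPP (edgeR adjusted p = 0.00119) and by 1.12 in rIAPP (0.00287). Tagln, a marker of contractile cells, rose by 0.74 in hIAPP (edgeR adjusted p = 0.00422). Tpm1, a tropomyosin, rose by 0.58 in rIAPP (edgeR adjusted p = 2.30e-07). Once the acinar score was a covariate, 0 of the 13 rose in hIAPP and 1 in rIAPP. With the endothelial score instead, 8 rose in hIAPP and 0 in rIAPP. Of the 13 genes, 9 had a promoter in the table, and a strict CArG box was found in those of Myl9 and Srf.

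Fibroblast genes rose in both transgenic lines. Of 20, 12 rose in hIAPP (median 0.81) and 18 in rIAPP (median 0.94), with none lower. In hIAPP the leading genes were Fap, a surface protease of activated fibroblasts (1.41, edgeR adjusted p = 2.05e-05), Mgp, a calcification inhibitor (1.27, 9.56e-06) and Postn, a matrix protein (1.45, 1.82e-04). In rIAPP they were Mfap4 (2.58, edgeR adjusted p = 3.47e-07), Fbln1 (1.57, 1.48e-06) and Gsn (0.85, 3.06e-07). In hIAPP against rIAPP 3 were higher and 7 lower, with Clec3b (-1.39), Fbln1 (-1.08) and Gsn (-0.74) among the lower ones. The counts fell to 3 and 5 for hIAPP and rIAPP against WT with the acinar score as a covariate. Calls over all genes fell to 746 and 1979 in that fit. With the endothelial score the fibroblast counts were 18 and 0, and 0 fibroblast genes were lower in hIAPP than in rIAPP. In the endothelial fit 460 of all genes were called between hIAPP and rIAPP. The rIAPP endothelial scores did not overlap those of the other genotypes, so that fit extrapolates. Of 14 stellate and mesenchyme genes, Des included, 7 rose and 1 fell in hIAPP, and 6 rose in rIAPP. Here 0 rose in either line with the acinar score as a covariate, and without hIAPP 5 and hIAPP 6 2 rose in hIAPP. With the endothelial score 8 rose in hIAPP and 0 in rIAPP. Vim, an intermediate filament of mesenchymal cells, rose in hIAPP (0.85, edgeR adjusted p = 5.67e-04) and in rIAPP (0.57, 0.00628). Hgf, a growth factor of stromal cells, rose in hIAPP (0.69, edgeR adjusted p = 0.00291) and in rIAPP (0.70, 0.00106). Meox1 fell in hIAPP (-0.48, edgeR adjusted p = 0.00156). Tcf21, a mesenchymal transcription factor, rose in rIAPP (0.97, edgeR adjusted p = 2.26e-04).

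Next came ligands and recruitment genes around the PDGF receptors. Of 13 genes, 2 rose and 2 fell in hIAPP (median 0.09), and 6 rose in rIAPP (median 0.24). Over all genes, 8.31% rose and 7.53% fell in hIAPP, and 14.1% rose in rIAPP. The small hIAPP counts are therefore not read as a result about the list. Ednra, an endothelin receptor of mural cells, rose by 1.07 in hIAPP (edgeR adjusted p = 8.23e-07), while Pdgfd, a ligand of PDGFR-beta, fell by 0.48 (0.00276) and Tek, an angiopoietin receptor, by 0.32 (0.00883). In rIAPP Tek rose (0.38, edgeR adjusted p = 9.99e-04), as did S1pr1 (0.66, 1.25e-04) and Edn1 (1.25, 5.25e-04). Pdgfa, a PDGF ligand named after its value was seen, rose by 0.22 in hIAPP (edgeR adjusted p = 0.0180) and 0.21 in rIAPP (0.0138). Tek and S1pr1 are genes of endothelial cells, whose markers were highest in rIAPP. With the endothelial score as a covariate none of these rIAPP calls held. Log2 fold changes were 0.0025 for Tek, 0.0456 for S1pr1 and 0.39 for Edn1 (edgeR adjusted p = 0.996, 0.934 and 0.758). The hIAPP fall of Tek was not called there either (-0.15, edgeR adjusted p = 0.269). The rIAPP scores (5.13 to 5.36) did not overlap those of WT (4.71 to 4.95), so this fit extrapolates. Tek and S1pr1 were adjusted there for markers of their own cell type, so the lost calls are no test of cell share.

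Relatives of Dcn and Lum were counted next. Of 7 other small leucine-rich proteoglycans tested, 3 rose in hIAPP (median 0.62) and 6 in rIAPP (median 1.32), and 5 were lower in hIAPP than in rIAPP. Aspn, asporin, rose in hIAPP (0.94, edgeR adjusted p = 3.33e-06), Ogn and Fmod in rIAPP (1.66, 5.80e-06 and 2.47, 2.25e-05) and Bgn, biglycan, in both (0.94, 0.00184 and 1.11, 1.26e-04). Of 12 matricellular genes, 6 rose in hIAPP, and in rIAPP 5 rose and 2 fell. Smoc1, a relative of Sparc, rose in both, by 1.38 in hIAPP (edgeR adjusted p = 1.84e-07) and 3.14 in rIAPP (3.50e-13), and Tnc, tenascin C, in hIAPP (1.70, 9.10e-05). The genes that fell in rIAPP were Spock1 (-1.92, edgeR adjusted p = 3.90e-10) and Spock2 (-1.34, 2.02e-08), proteoglycans that share a domain with Sparc.

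Of 12 genes listed for fibronectin, 7 rose in hIAPP and none fell, and 6 rose and 2 fell in rIAPP. The list holds Eda, which is ectodysplasin and not a fibronectin gene, and it rose in both. Itga8 (0.94, edgeR adjusted p = 1.14e-05) and Itgb5 (0.48, 1.30e-06), integrin subunits, and the syndecan Sdc4 (0.64, 6.76e-05) rose in hIAPP with Fn1, and Itgav fell in rIAPP (-0.33, 4.45e-04). Of 11 TGF-beta response genes, 6 rose in hIAPP and none fell, led by Pmepa1 (0.69, edgeR adjusted p = 1.66e-05), Timp1 (1.25, 9.39e-05) and Tgfbi (0.90, 6.92e-04). In rIAPP 4 rose and 1 fell, and Inhba (2.26, edgeR adjusted p = 2.78e-08) and Cthrc1 (1.85, 7.46e-08) led. Among 10 relatives of Rgs5, 1 rose and 1 fell in hIAPP, and 3 rose and 2 fell in rIAPP. The hIAPP count is near the share over all genes (8.31% higher and 7.53% lower). For rIAPP those shares were 14.1% higher and 12.6% lower. The medians were -0.06 in hIAPP and 0.06 in rIAPP, and these small counts are not read as a result about the list. Rgs10 rose in hIAPP (1.01, edgeR adjusted p = 1.19e-05), Rgs3 (-0.58, 2.77e-06) and Rgs16 (-0.67, 2.38e-04) fell in rIAPP, and the hIAPP fall of Rgs4 (-0.23, 0.0422) was lost in 18 of 33 alternative fits. Macrophage markers were also higher in hIAPP, and their part in the rises of Rgs10, Timp1 and Tgfbi was not tested. In the acinar covariate fit, genes higher in hIAPP and in rIAPP numbered 1 and 3 for the PDGF list and 1 and 1 for the proteoglycans. They numbered 2 and 3 for the matricellular genes, 3 and 2 for the fibronectin list and 2 and 2 for the TGF-beta list. With the endothelial score those counts were, in the same order, 3 and 0, 2 and 0, 8 and 1, 8 and 1, and 8 and 2. There 0 proteoglycans were lower in hIAPP than in rIAPP, and 460 of all genes were called against 5586 without the covariate. That fit extrapolates for rIAPP.

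**Figure D5:**
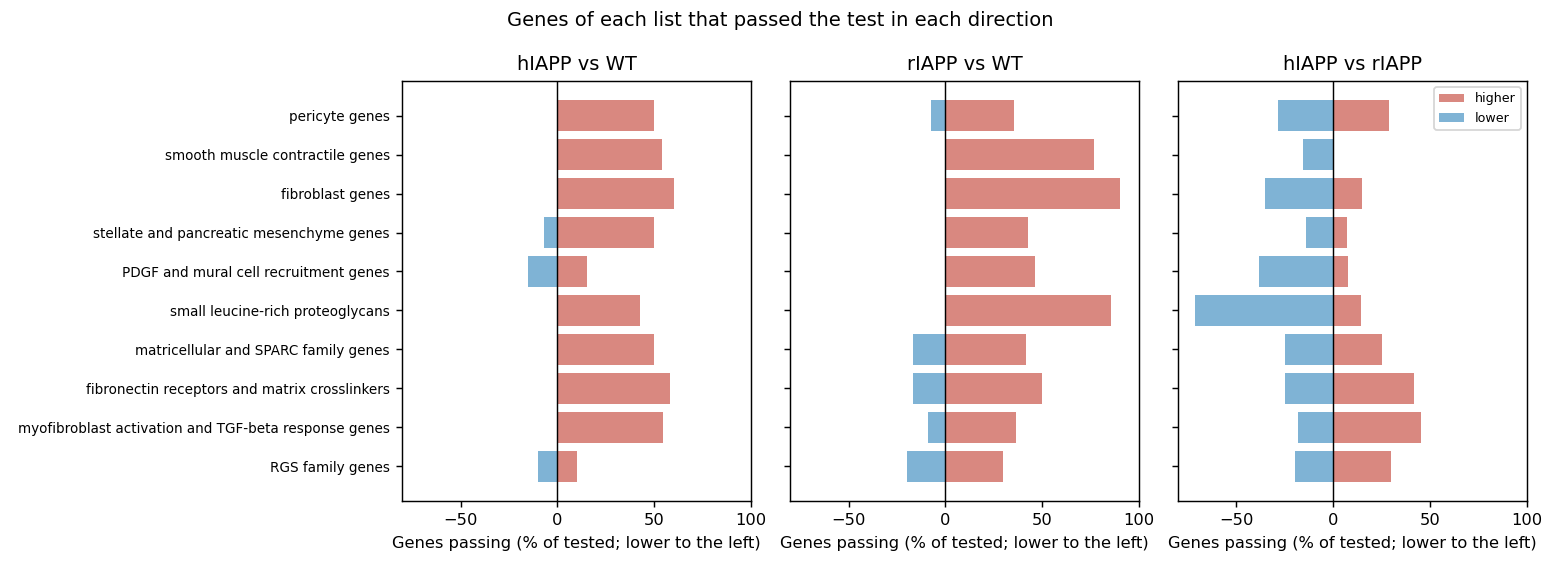
Share of the tested genes of each of the 10 lists (% of genes, 1 bar per list) that passed the test as higher, to the right of 0, or lower, to the left, in the 3 comparisons. For the fibroblast list the bars stand for 12 of 20 genes higher in hIAPP and 18 of 20 higher in rIAPP against WT.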

How the data were processed

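Bulk RNA was sequenced from islets of 18 mice, per the labels about 165 islets each, after ribosomal RNA depletion. The values are estimated counts per gene symbol, as deposited and not normalised. STAR, HTSeq, GRCm38 and mm10 are named in the submitters' processing notes, without versions. Which annotation, strand setting and counting step gave the fractional values is not given in the sources used here. Of the values above 0, 39.2% were not whole, and all were rounded (largest change for a member 0.489). Replicate numbers are in accession order.

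Counts were tested with edgeR 4.0.16 (R 4.3.3): TMM factors, filterByExpr by genotype (20244 genes), a quasi-likelihood fit of all 18 libraries and Benjamini-Hochberg adjustment over all genes, called under 0.05. In parentheses after a gene, the first number is the log2 fold change and the second the edgeR adjusted p. CPM divide by the total of kept genes and by the TMM factor, with a prior count of 2 before taking log2. Positions come from GENCODE M21 (GRCm38), in which 49732 symbols matched. Alternatives included DESeq2 1.42.0, limma-voom (limma 3.58.1), other scalings and filters, acinar or endothelial scores as covariates and leaving out each library. The pipeline was tested on simulated data. From each list up to 3 called genes with the smallest p per comparison and at least 0.5 CPM are named, and the 5 genes most like Pdgfrb and Dcn, and a gene that the rule names is not reported here. The members and lists were chosen with earlier results of these data known. Library totals ran from 110 to 166.2 M counts.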

Additional observations from a re-analysis of the deposited data

Results flagged for a closer look

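Des in rIAPP 6 was the only group extreme that met the gap criterion. Its level was 10.6 CPM, and the other rIAPP libraries lay between 13.5 and 15.2. The gap to its nearest neighbour was 0.662 of the range on the log2 scale, above Dixon's 95% critical value for 6 samples. Of 30 groups examined (10 members in 3 genotypes) 1 met it, and chance alone gives about 1 in 20. Without this library the difference of Des between hIAPP and rIAPP passed the test (-0.30, edgeR adjusted p = 0.0114).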

How the results depend on the processing

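Calls on Fn1, Pdgfrb and Rgs5 in both hIAPP comparisons held in all 33 alternatives. With the acinar score as a covariate, hIAPP against WT gave 3 members called, all 3 higher, 14 list genes against 61 and 746 genes in all against 3208, and Dcn was -0.20. For rIAPP against WT it gave 2 members, both higher, 26 list genes against 76 and 1979 genes against 5417, with Pdgfrb at -0.0447 and Rgs5 at -0.0891. For hIAPP against rIAPP, Acta2 was 0.0496. With the endothelial score, hIAPP against WT gave 1735 genes, Pdgfra 0.39 and Sparc 0.56. For hIAPP against rIAPP it gave 5 members higher and 0 lower, 21 list genes against 61 and 460 genes against 5586. There the median was 1.06, Pdgfra 0.10, Acta2 1.198, Lum 1.52, Des 0.34, Sparc 0.68, Fbln1 0.45 and Tcf21 0.12. For rIAPP against WT it gave 1 member, 0 higher and 1 lower, 11 list genes and 1051 genes. There the median was -0.12, Pdgfrb -0.27, Acta2 -0.12, Rgs5 -0.32, Sparc -0.11, Fn1 -0.98, Myl9 -0.11, Tgfb3 -0.0891 and Rgs4 -0.00853. The endothelial score of rIAPP did not overlap the others, nor its acinar score that of WT, so those fits extrapolate. Of the hIAPP libraries, only hIAPP 1 had an acinar score inside the WT range, so that fit extrapolates for the rest. The cause of these shifts was not tested. Without hIAPP 5 and hIAPP 6, hIAPP against WT gave 38 list genes and 1675 genes, and Dcn was -0.0431. At an adjusted p under 0.01 it gave 39 list genes and 1490 genes, with 3617 genes called between hIAPP and rIAPP and 3598 between rIAPP and WT. Leaving out 1 library gave 6 to 7, 5 to 7 and 6 to 6 members for hIAPP against WT, hIAPP against rIAPP and rIAPP against WT, with 2 to 4 lower in the second. Members near 0 changed sign. Cspg4 in hIAPP against WT ran from -0.0433 to 0.113 (below 0 without WT 1 or hIAPP 4). Acta2 in hIAPP against rIAPP ran from -0.20 to 0.0203 (above 0 without hIAPP 1 or rIAPP 2). Rgs5 in rIAPP against WT ran from -0.0288 to 0.0654 (below 0 without WT 1, 4 or 5 or rIAPP 3). No paired analysis was possible because the replicate numbers are in accession order and the labels share no number across genotypes.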

Other observations

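Mesothelial markers (6 genes) summed to 122 to 156 CPM in WT, 118 to 148 in hIAPP and 267 to 360 in rIAPP. Msln, mesothelin, averaged 49.9 CPM in WT, 28.9 in hIAPP and 194 in rIAPP, and Krt8, a keratin that ductal cells also express, 94.2, 101 and 118. Of the 4 markers tested, these 2 rose in rIAPP against WT (log2 fold change 1.96 and 0.32, edgeR adjusted p = 8.11e-10 and 0.00103). Upk1b averaged 0.107 CPM in WT and 0.350 in rIAPP and Wt1 0.0472 and 0.112, and neither passed (edgeR adjusted p = 0.0560 and 0.145). Upk3b and Lrrn4 were below the filter, at most 0.020 and 0.018 CPM in any genotype. Schwann cell markers (8 genes) summed to 71.9 to 94.7 CPM in WT, 89.8 to 99.4 in hIAPP and 93.2 to 108 in rIAPP. Ductal markers (8 genes) summed to 290 to 377 CPM in WT, 278 to 354 in hIAPP and 335 to 395 in rIAPP. These values belong to no test of the members.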
